A study of Schizosaccharomyces pombe with 4 samples.

Results

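The 4 fission yeast genes ecm33, knh4, psy1 and SPCC306.11, grouped under the working name of cell surface genes, had promoters occupied by the transcription factors Fkh2, Sak1 and Sep1 in deposited chromatin immunoprecipitation sequencing (ChIP-seq) peak lists. A gene was given a peak when the peak centre lay from 1000 bp upstream to 250 bp downstream of its annotated start. By that rule the 4 genes held 13 peaks, 5 of the 152 in the Fkh2 list, 4 of the 47 in the Sak1 list and 4 of the 11 in the Sep1 list. The members were chosen by their presence in all 3 peak lists, so that presence is a description and not a finding. Among 5113 nuclear protein-coding genes, 2.84% had a Fkh2 peak in reach, 1.06% a Sak1 peak and 0.176% a Sep1 peak. The share with all 3 was also 0.176%, 9 genes, of which these are 4.

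The factors were pulled down with IgG beads through a C-terminal TAP tag from asynchronous cultures of Schizosaccharomyces pombe in YES medium. The Fkh2-TAP strain was JLP1586, the Sak1-TAP strain JLP1792, the Sep1-TAP strain JLP1670 and the untagged control F108. The labels name a treatment for the Sep1-TAP culture alone, 45 min in 1 mM bortezomib, which blocks the proteasome. Each library pools 2 biological experiments, so each factor has 1 list, no replicate error can be computed, and factor and treatment cannot be told apart for Sep1. Library totals were 1042990 tags (Fkh2), 795148 (Sak1) and 906632 (Sep1). Of these, 1.93%, 0.965% and 0.110% lay in the listed peaks, so the Sep1 list is short and holds few of its tags. Intervals below are exact 95% intervals for the number of tags. They cover counting error only, since each factor has 1 list, and the tags carry no molecular identifiers.

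Fkh2 and Sep1 are forkhead proteins, which bind DNA through a winged-helix domain. In fission yeast both regulate the wave of transcription at mitosis, where Sep1 is known as an activator and Fkh2 mainly as a repressor. Sak1 belongs to the RFX family, whose members also bind through a winged helix. The cell wall of fission yeast is a layer of glucans and mannoproteins that is built at the cell tips and at the division septum. Ecm33 is a cell surface protein tethered by a lipid anchor, known to restrain signalling through the cell integrity kinase Pmk1, and its gene is a known target of the factors Mbx1 and Atf1. The name of knh4 recalls the budding yeast Knh1 and Kre9 proteins, which are needed for wall glucan, but the annotation gives no function for it. Psy1 is the plasma membrane syntaxin, a SNARE protein on which secretory vesicles fuse, and it also serves the forespore membrane. SPCC306.11 is annotated as an uncharacterised protein.

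The coding sequences were checked against the name given to the group. In Kyte-Doolittle hydropathy averaged over 19 residues, the last 40 residues of Psy1 reached 3.36, higher than 99.9% of the 5081 proteins scored. Knh4 reached 2.18 and Ecm33 2.02 at the same end, higher than 97.7% and 96.4% of proteins. SPCC306.11 lacked such a stretch at this end, with 0.232, and had one at the other end, with 2 in the first 40 residues, above 96.6% of proteins. Serine and threonine made up 47.6% of Knh4, 25.7% of Ecm33 and 23.7% of SPCC306.11, against a median of 13.9%, and 9.86% of Psy1. A C-terminal hydrophobic stretch is a feature of tail-anchored SNAREs and of lipid-anchored wall proteins, but these values do not place a protein in the cell. The name of the group rests on what is known of Ecm33 and Psy1, and for knh4 and SPCC306.11 neither the annotation nor these values settle it.

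The promoter sequences under the peaks are shown because the members differ in the words they hold. Each is the Fkh2 peak with 5 bp added on either side, from the RefSeq assembly ASM294v3, 5′ to 3′ on the strand of the gene. For psy1, whose peak lies in a 3′ UTR of the neighbouring gene, the pair of 30-base stretches around the words is shown in place of the peak. Capitals mark the words searched on both strands. The forkhead word was GTAAACA. The RFX word was taken as GTTACCA and also, with the other purine in its middle, as GTTGCCA. A further word, called word A here, was GTTGCTA. Another, called word B, was GTTGTCA, and both were taken from an earlier look at these lists. A comparison word was ACGCGT, the MCB word of G1/S genes.
ecm33, near site (I:1571628-1571792, minus strand): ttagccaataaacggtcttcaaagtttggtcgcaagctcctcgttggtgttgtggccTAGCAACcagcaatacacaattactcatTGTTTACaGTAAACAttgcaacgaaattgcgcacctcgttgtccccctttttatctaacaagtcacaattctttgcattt
ecm33, far site (I:1572195-1572359, minus strand): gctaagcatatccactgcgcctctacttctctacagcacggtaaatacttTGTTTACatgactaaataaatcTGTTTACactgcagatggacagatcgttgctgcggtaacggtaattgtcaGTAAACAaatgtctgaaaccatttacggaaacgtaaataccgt
knh4 (II:1970324-1970488, plus strand): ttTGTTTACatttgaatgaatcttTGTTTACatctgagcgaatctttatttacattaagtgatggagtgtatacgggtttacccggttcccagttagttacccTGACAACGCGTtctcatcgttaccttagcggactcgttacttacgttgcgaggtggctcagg
psy1, word A and near forkhead word (III:1029292-1029321, minus strand): gttGTTGCTAagccgcctttTGTTTACcat
psy1, far forkhead word (III:1029367-1029396, minus strand): caacattaaaaaGTAAACActgctacgtca
SPCC306.11 (III:430175-430339, plus strand): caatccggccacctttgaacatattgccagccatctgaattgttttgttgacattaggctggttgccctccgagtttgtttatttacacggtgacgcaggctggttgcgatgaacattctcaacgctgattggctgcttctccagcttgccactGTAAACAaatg

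At ecm33 (I:1569613-1571589, minus strand) the near site was occupied by all 3 factors and a second, farther site was listed for Fkh2. The near Fkh2 peak (I:1571633-1571787) was centred 121 bp upstream of the gene start and its normalised tag count, scaled to 10000000 tags, was 6836 (interval 6343 to 7357). The Sak1 peak was centred on the same base, with a count of 4301 (3857 to 4782), and the Sep1 peak 37 bp farther upstream, with 1754 (1492 to 2049). These counts ranked 1 of 152, 2 of 47 and 2 of 11 in their lists, while by fold over the control the same peaks ranked 12, 20 and 4. The far Fkh2 peak (I:1572200-1572354) was centred 688 bp upstream, ranked 3 and held 0.682 times the tags of the near one (0.607 to 0.767). No other gene had a second peak of the same factor in reach, among the 145 genes reached by Fkh2, 54 by Sak1 and 9 by Sep1. The spacing of the ecm33 sites exceeds the minimum distances between peaks that the headers give, 310, 470 and 416 bp. Only listed peaks were available, so Sak1 or Sep1 signal at the far site below the calling thresholds would not be seen.

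The near and far ecm33 sites differed in the words they held. The near site has a pair of forkhead words on opposite strands, 1 bp apart, whose centres lay 6 and 14 bp from the Fkh2 and Sak1 peak centres. Word A follows 21 bp farther upstream. The far site has 3 forkhead words and neither word A nor word B within 150 bp of its centre. Both sites lie between protein-coding genes, in an upstream gap of 3755 bp that ends at rbx1, a ubiquitin ligase subunit gene. This gap is longer than that of 98.3% of genes. The near site is covered by the antisense long noncoding RNA gene SPNCRNA.2693 (I:1571562-1571875), which overlaps the ecm33 start. The far Fkh2 centre also lies in an antisense one, SPNCRNA.2694 (I:1572008-1572885), and in SPNCRNA.80 (I:1572010-1572308) on the strand of ecm33.

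At knh4 (II:1970607-1972799, plus strand) the 3 peaks again shared 1 site. The Fkh2 peak (II:1970329-1970483) was centred 201 bp upstream, with a count of 4214 (3829 to 4627). The Sak1 peak (II:1970243-1970477) was centred 247 bp upstream, with 2955 (2590 to 3358). The Sep1 peak (II:1970301-1970509) was centred 202 bp upstream, with 529 (390 to 702), or 48 tags, where the list required 34. These ranked 4 of 152, 9 of 47 and 9 of 11, so that knh4 stood high in the Fkh2 and Sak1 lists and low in the Sep1 list by tag count. By fold over the control they ranked 5, 7 and 5. The Sak1 centre was displaced by 46 bp toward the forkhead words, which lie 256 and 278 bp upstream of the gene start on the same strand. The distance from the nearer word was 9 bp for the Sak1 centre and 55 bp for the Fkh2 centre. Word B lies 24 bp from the Fkh2 centre and overlaps the MCB word by 2 bases.

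The gap upstream of knh4 is 1216 bp and ends at the retrotransposon Tf2-10. It too is covered at the peaks by an antisense noncoding RNA gene, SPNCRNA.5428 (II:1969857-1970654). The next Fkh2 peak lay 2762 bp downstream of the knh4 start, with a count of 1098, and was the nearest peak left outside the reach of any member.

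At psy1 (III:1027501-1029219, minus strand) the 3 centres lay within 34 bp, the smallest span among the members, and the peaks had a common stretch of 155 bp. The Fkh2 peak (III:1029257-1029411) was centred 115 bp upstream with a count of 1783 (1536 to 2059). The Sak1 peak (III:1029251-1029485) was centred 149 bp upstream with 1849 (1562 to 2173). The Sep1 peak (III:1029249-1029457) was centred 134 bp upstream with 2206 (1911 to 2534). They ranked 27 of 152, 24 of 47 and 1 of 11, so the gene that headed the Sep1 list lay at the median of the Sak1 list by tag count. By fold over the control they ranked 22, 9 and 1. All 3 centres fall in the 3′ UTR of naa40, a gene for a histone acetyltransferase on the same strand, whose annotated end runs past the psy1 start. In contrast with the other members, no noncoding RNA gene covers the site. One forkhead word and word A are separated by 10 bp, and a second forkhead word lies 59 bp beyond.

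At SPCC306.11 (III:430415-432270, plus strand) the Fkh2 peak stood high in its list by tag count, the Sak1 peak low and the Sep1 peak near the median of 937.5. The Fkh2 peak (III:430180-430334) was centred 158 bp upstream with a count of 4056 (3678 to 4461). The Sak1 peak (III:430137-430371) was centred 161 bp upstream with 1031 (820.2 to 1280). The Sep1 peak (III:430220-430428) was centred 91 bp upstream with 926.5 (739.0 to 1147). These ranked 6 of 152, 41 of 47 and 7 of 11, and by fold over the control 36, 44 and 8. The Sep1 centre was 67 bp closer to the gene than the Fkh2 centre, the widest offset from Fkh2 among the members, and lay 8 bp from the forkhead word. That word lay 75 bp from the Fkh2 centre and 78 bp from the Sak1 centre.

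The upstream gap of SPCC306.11 is 4052 bp and ends at cap1, a gene for an adenylyl cyclase-associated protein. It is longer than that of 98.6% of genes. The antisense noncoding RNA gene SPNCRNA.6847 (III:429326-431896) covers the peaks and the coding sequence. The annotated 5′ UTRs of SPCC306.11, ecm33 and knh4 are long, at 373, 329 and 307 bp against a median of 80 bp, and that of psy1 is 73 bp. An antisense noncoding RNA gene covered the site in 3 of the 4 members, while one covered the position 150 bp upstream of 38.7% of all genes.

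**Figure D1:**
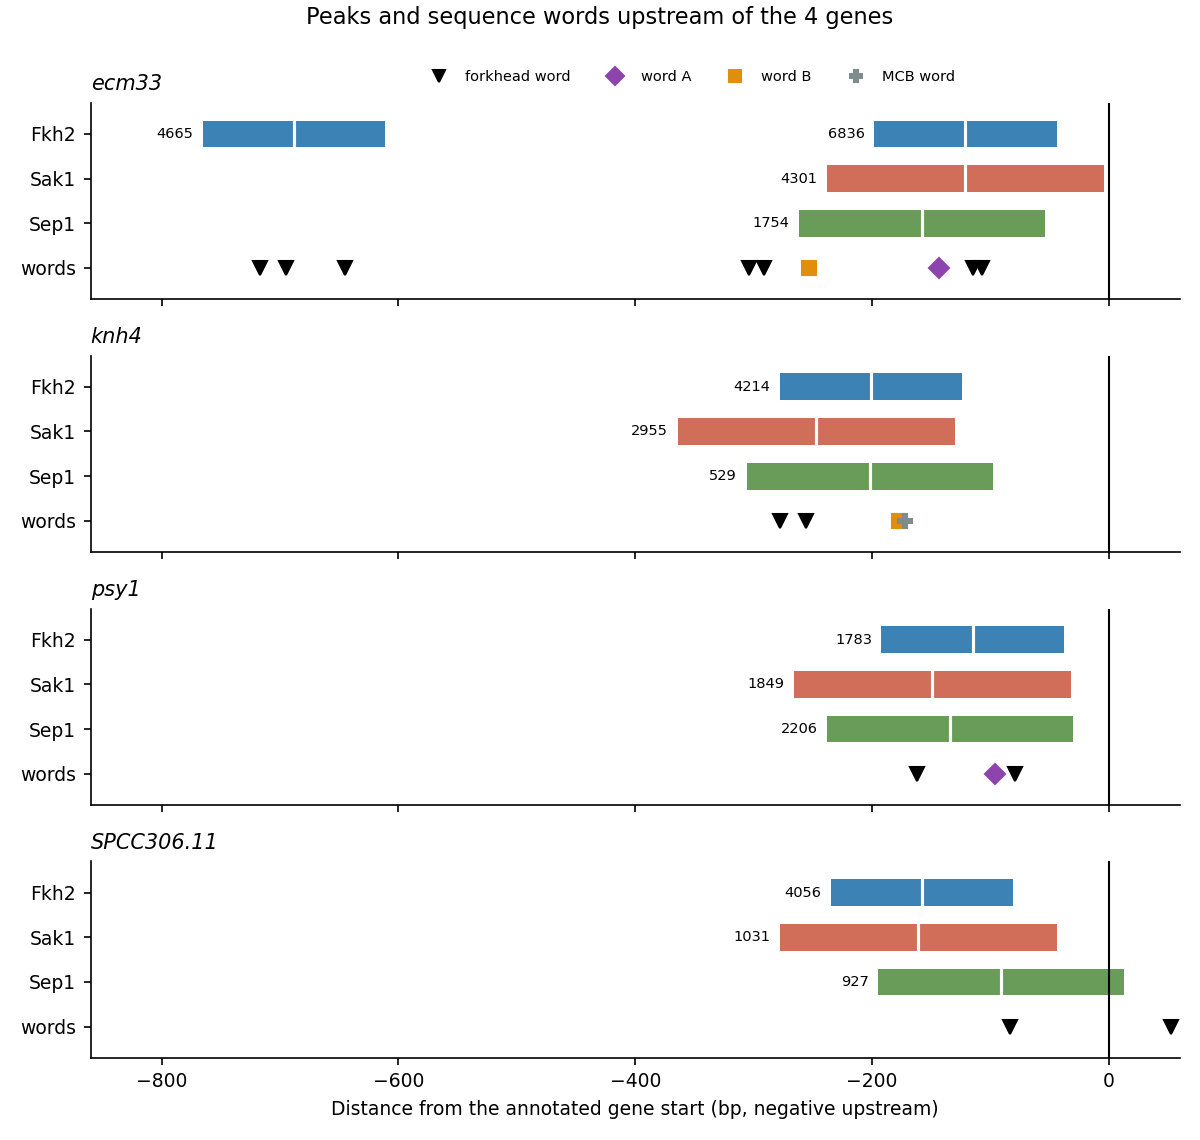
Peaks of the 3 factors (bars, centre in white, normalised tag count beside each) and sequence words (symbols) by distance from the annotated gene start in bp, one panel per gene. The peaks of the factors overlap at each gene, and a second peak at ecm33 is listed for Fkh2 alone.

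The words were compared with all promoters and with the lists, as a description. Word shares of the Sak1 list cover the 46 of its 47 peaks that lie on chromosomes I, II and III. The forkhead word lay within 150 bp of the centre at all 12 pairs of a member and a list, leaving out the far ecm33 site. The windows of a gene overlap between the lists and mostly hold the same words, so these pairs are 4 sites and not 12 separate observations. The forkhead word lay in 17.1% of 5112 promoter windows of the same 301 bp length centred 150 bp upstream of a gene start. It also lay in 73.7%, 71.7% and 63.6% of the Fkh2, Sak1 and Sep1 peaks. Within 75 bp of the centre, 10 of the 12 pairs held it, and the peak interval held it in 11. More than 1 forkhead word stood in the Fkh2 window of ecm33, knh4 and psy1, as in 21.1% of Fkh2 peaks and 2.31% of promoters. SPCC306.11 had 1 in its Fkh2 and Sak1 windows and a second in its Sep1 window. All 7 of the Sep1 peaks with the word held more than 1. The members' own peaks are 4 of the 11 in the Sep1 list and all hold the word, so word shares of that list are in part their own.

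The preset RFX word was in none of the members' windows, although 32.6% of Sak1 peaks held it, against 4.71% of promoters. With 1 mismatch allowed it was in all 12, but so it was in 70.4% of promoters. Word A and word B each differ from GTTGCCA by 1 base. Lack of the exact RFX word therefore does not show that a site for Sak1 is lacking. Word A stood at ecm33 and psy1 and word B at ecm33 and knh4. Word A was in 34.8% of the Sak1 list, 54.5% of the Sep1 list, 13.8% of the Fkh2 list and 5.26% of promoters. Word B was in 34.8%, 18.2%, 11.2% and 3.44% of the same. A forkhead word together with word A or word B stood in 43.5% of the Sak1 list, 16.4% of the Fkh2 list, 6 of the 11 Sep1 peaks and 1.58% of promoters. Words A and B were taken from an earlier look at these lists, so their excess over promoters follows at least in part from that choice and is no finding. SPCC306.11 had neither word A nor word B.

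Within each list the members were ordered by tag count, a comparison in 1 library over peaks of 1 width. In the Fkh2 list the order was ecm33, knh4, SPCC306.11 and psy1. The interval of ecm33 lay above all others and that of psy1 below, while knh4 and SPCC306.11 did not differ beyond counting error, with a ratio of 1.04 (0.907 to 1.19). In the Sak1 list the order was ecm33, knh4, psy1 and SPCC306.11, and no neighbouring intervals overlapped. In the Sep1 list it was psy1, ecm33, SPCC306.11 and knh4. There the intervals of psy1 and ecm33 overlapped, although the ratio of their tags had an interval just above 1.

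**Figure D2:**
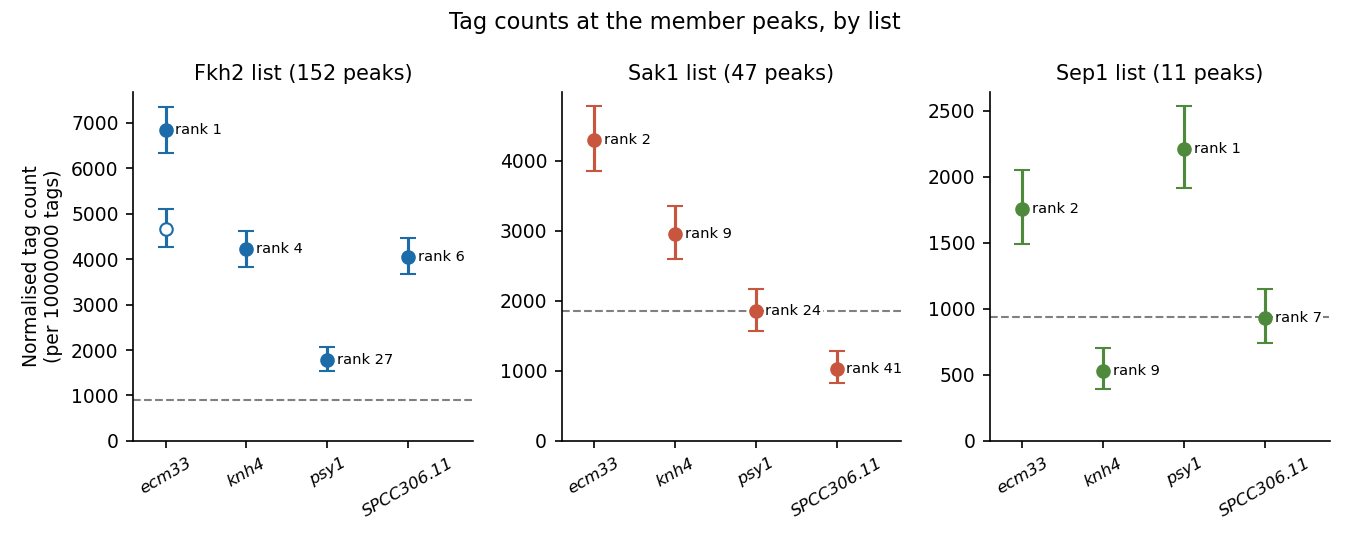
Normalised tag count per 10000000 tags at the peaks of the 4 genes in each list, with exact 95% Poisson intervals for counting error; the open symbol is the far ecm33 site and the dashed line the median of the list. Fkh2 counts run from 1783 at psy1 to 6836 at ecm33, all above the list median of 894.1, and Sep1 counts from 529 at knh4 to 2206 at psy1.

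By tag count, the relative occupancy of psy1 differed most between the lists. Its peak held 0.261 times the tags of the ecm33 peak in the Fkh2 library (0.221 to 0.307), 0.430 times in the Sak1 library (0.352 to 0.523) and 1.26 times in the Sep1 library (1.02 to 1.56). None of these intervals overlap. For knh4 the ratio was 0.616 for Fkh2 (0.546 to 0.695), 0.687 for Sak1 (0.579 to 0.814) and 0.302 for Sep1 (0.214 to 0.419), so Sep1 stood apart from the others. For SPCC306.11 it was 0.593 for Fkh2 (0.525 to 0.670), 0.240 for Sak1 (0.186 to 0.306) and 0.528 for Sep1 (0.401 to 0.692), so Sak1 stood apart. The order of the 4 promoters by tag count therefore differed between the libraries by more than counting error. These ratios take no account of the background. By fold over the control, SPCC306.11 was the lowest member in every list, at 28.2 (Fkh2), 5.64 (Sak1) and 6.93 (Sep1). In the Sak1 list psy1 then stood above ecm33, with 45.2 (12.3 to 377) against 21.0 (11.3 to 44.1). These intervals overlap, and the folds rest on 2 and 10 control tags. With the control set no lower than its mean over the genome, psy1 stood below ecm33 in that list, at 9.95 against 21.0. SPCC306.11 was then the lowest member in the Sak1 list alone. By fold over the surrounding 10000 bp, psy1 stood below ecm33 in every list. Spread between experiments could not be added, because the 2 experiments of each factor are pooled, and the bortezomib treatment goes with the Sep1 library.

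**Figure D3:**
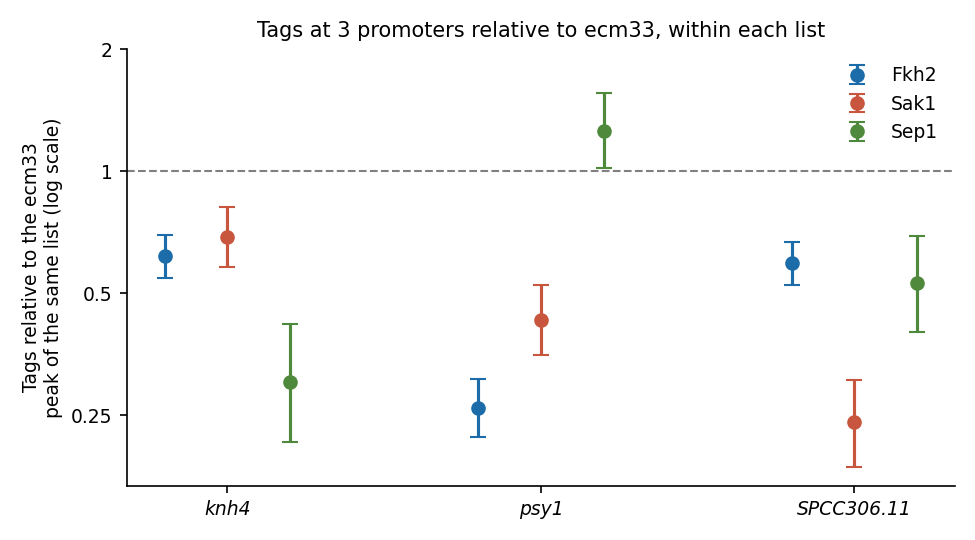
Tags at the peaks of 3 genes divided by the tags at the near ecm33 peak of the same list, on a log axis, with exact 95% intervals for counting error. For psy1 the ratio is 0.261 for Fkh2, 0.430 for Sak1 and 1.26 for Sep1, while SPCC306.11 is lowest for Sak1 and knh4 for Sep1.

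The untagged control had few tags at these sites. At psy1 and knh4 each list gave 2 control tags, which alone allow 0.242 to 7.22. The fold over the control at psy1 was 43.3 for Fkh2 (11.8 to 360.4), 45.2 for Sak1 (12.3 to 377) and 53.6 for Sep1 (14.6 to 446). With the control set no lower than its mean over the genome per peak width, these were 14.5, 9.95 and 13.3. At knh4 the fold was 103 for Fkh2 (28.2 to 850), 72.1 for Sak1 (19.7 to 599) and 12.9 for Sep1, and with the control so raised 34.2, 15.9 and 3.18. At ecm33 the near site had 4, 10 and 5 control tags in the 3 lists and folds of 83.6 (32.5 to 308), 21.0 (11.3 to 44.1) and 17.0 (7.15 to 53.2), or 55.8, 21.0 and 10.5 with the raised control. The far site had 10 control tags and a fold of 22.8.

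SPCC306.11 had 7, 9 and 6.5 control tags and folds of 28.2, 5.64 and 6.93. Its Sak1 fold ranked 44 of 47, and the interval (2.83 to 12.8) reached below the required 4 fold, as did those of Sep1 at SPCC306.11 (3.14 to 18.5) and at knh4 (3.37 to 109). With the raised control the Sep1 fold at knh4 was the only one of the 12 under 4. Against the surrounding 10000 bp the Sep1 fold at knh4 was also the lowest among the members, at 4.94, and the highest was that of Fkh2 at SPCC306.11, at 29.0.

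**Figure D4:**
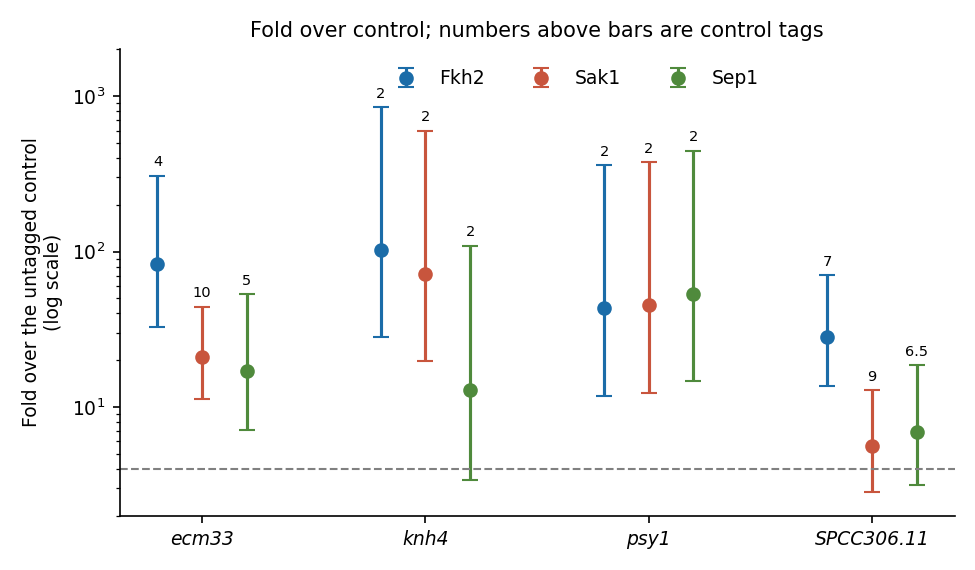
Fold over the untagged control at the peaks of the 4 genes by list, on a log axis, with exact 95% intervals for counting error; the number above each bar is the control tags and the dashed line the required 4 fold. The intervals of Sep1 at knh4 and of Sak1 and Sep1 at SPCC306.11 reach below the line.

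Peaks of all 3 factors were also in reach of the glucan enzyme genes gas1 and exg1, the chitinase gene cts2, and gde1, whose start shares the cts2 peaks. Their Fkh2 counts ran from 3221.5 to 4166, and psy1, at 1783, was below all of them. Their Sep1 counts ran from 882.4 to 970.6, with intervals that end at 1196, below the lower bounds of both ecm33 and psy1. Their Sak1 counts ran from 1069 at exg1 to 3420.7 at gas1, and SPCC306.11, at 1031, did not differ from exg1 beyond counting error.

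Lists of wall, cell surface and exocytosis genes, written with earlier results known, gave the setting of the 4 genes. Of 23 wall synthesis and remodelling enzymes, 6 had a Fkh2 peak, 6 a Sak1 peak and 3 a Sep1 peak, where 2.84%, 1.06% and 0.176% of all genes had one. Among them were ags1, the alpha-glucan synthase gene, with Fkh2 and Sak1 counts of 1385 and 1748, and gas5, a glucanosyltransferase gene, with 1012 and 1245. The list gene chs2 had a Fkh2 peak alone, with a count of 1424, and eng1 a Sak1 peak alone, with 1434. Each of these peaks was also in reach of another gene start, and that of eng1 was centred 940 bp upstream. Of 9 other wall and surface genes, 1 was reached by Fkh2 and Sak1. This was knh1, a namesake of knh4, with a Fkh2 count of 546.5 that ranked 119 of 152 and a Sak1 count of 2264 that ranked 18 of 47. Both knh1 peaks were also in reach of another gene start.

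None of the 15 genes of wall integrity and polarity signalling, pmk1 and rho1 among them, had a peak in reach. Nor did any of the 12 other genes of plasma membrane fusion and the exocyst, which include sec9 and syb1, the genes for the SNARE partners of Psy1. With 2.84%, 1.06% and 0.176% of all genes reached, counts of 0 in lists this short are near the background and are no result about these genes. Of 14 SNAREs of other membranes, bet1, which acts between the endoplasmic reticulum and the Golgi, had Fkh2 and Sak1 peaks with counts of 1290 and 2918. In these lists ags1, gas5, knh1 and bet1 had peaks of Fkh2 and Sak1 and none listed for Sep1. Among all genes, 54 had a Sak1 peak in reach and 9 a Sep1 peak, so this absence is common and no trait of these genes.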

How the data were processed

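ChIP-seq was performed on 3 TAP-tagged strains and an untagged control, each sample pooling 2 experiments. The submitters' processing notes name HOMER, Bowtie2 2.1.0 and SAMtools 0.1.18, with no build or HOMER version given in the sources used here. Peaks were called by findPeaks, per the file headers, in each tagged library with the untagged one as input, at a false discovery rate of 0.001, 4 fold over input, 4 fold over the surrounding 10000 bp and Poisson p 1e-04. The deposited normalised tag counts are a signal that the authors scaled to 10000000 tags per library, and the control tags are the deposited signal of the untagged library. The folds are deposited ratios. The names of the deposited lists mark them as without duplicates. The deposited focus ratio (a fraction), the score and the p-values are the caller's own, and of these only the score was used, as an alternative rank. Counts and folds were ranked within a list. Folds, and ratios to ecm33 formed within a list, were also set side by side between lists. Peak widths were 155 bp (Fkh2), 235 bp (Sak1) and 209 bp (Sep1).

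Peaks were read against RefSeq ASM294v3 (5113 nuclear protein-coding genes) with Python 3.11.15, pandas 2.3.3 and SciPy 1.17.1. The forkhead word lay at 112 of 152 Fkh2 peaks and at no more than 19 after shifts of 1000 to 5000 bp. Tags were recovered from counts and library totals, and all came out within 0.02 of a multiple of 0.5. Intervals are exact Poisson or binomial at 95%, with tags ending in 0.5 entered unrounded. Gene assignment and word search were tested on simulated data. No test was made. The members, gene lists and words were chosen with earlier results of these data known. Genes named are the members, their neighbours, genes in all 3 lists (except 1 gene, which, with 1 searched word, is not reported here) and list members with a peak; signalling, exocyst and SNARE genes without one were named for their function.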

Additional observations from a re-analysis of the deposited data

How the results depend on the processing

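Each factor has 1 list, so these are descriptions whose depth limit is the few control tags. No paired analysis was possible because each factor has 1 pooled sample and the result comes from no test. Leaving out a replicate could not be run for the same reason. All 12 pairs of member and list kept a peak when the reach was 500 bp upstream and 0 downstream or 2000 and 500 bp, and with the start codon as gene start, while the far ecm33 site was lost under the first and the last of these. In the upper 50% of each list 8 pairs were left, and at 8 fold over the control 10, with SPCC306.11 left in the Fkh2 list alone under both. With the control set no lower than its mean over the genome, the median fold of 35.8 fell to 13.9. From the start codon the median distance was 475.5 bp, against 153.5 bp from the gene start. With 1 mismatch the RFX word, word A and the MCB word were in 12 pairs each, from 0, 6 and 3. Within 75 bp word B was in 3 pairs in place of 6. In the upper 50% of peaks 83 genes were reached by Fkh2, 28 by Sak1 and 4 by all 3, and 4 list genes by Sak1. Ranked by fold over the control, ecm33 stood 12 in the Fkh2 list and 20 in the Sak1 list, psy1 rose to 9 in the Sak1 list and SPCC306.11 stood 36 in the Fkh2 list. Of 36 ranks by the score, by fold over the control or by fold over the local background, 13 lay outside the counting interval. Why they moved was not tested.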
